A study of Homo sapiens with 6 samples.

Results

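The 51 genes described here encode the TGF-beta and BMP pathway: its secreted ligands and their latency proteins, its receptors, the SMAD proteins, the inhibitors, and the ID genes that BMP signals switch on. The list was chosen with earlier results of these data known, although the rule that picks its rows uses no measured value. Its genes were taken as the rows of the deposited gene table that carry 1 of 51 listed gene symbols. Of these, 50 symbols had a row among the 29185 genes of the table. BMP4 had no row and was not analysed here. After the filter on low counts, 47 of them were tested, and INHBB, GREM1 and CHRDL1 had too few reads.

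The libraries were made from SKOV3, an established human ovarian cancer cell line, by poly(A) selection and short-read sequencing. The 3 sh-KLF5 libraries came from cells with knockdown of KLF5, a zinc-finger transcription factor, through a pLKO.1-EGFP-Puro short hairpin vector with puromycin selection. The 3 control libraries are called sh-NC here, after the study, while their labels give the genotype as WT. All 6 libraries share the cell line, the labels name a single knockdown line, and nothing in them says that replicates are separate cultures, so p-values measure only the spread between these samples, which may be technical.

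TGF-beta, activin, BMP and GDF ligands bind pairs of type I and type II receptor kinases, which phosphorylate receptor-regulated SMADs. TGF-beta and activin act mainly through SMAD2 and SMAD3, BMPs through SMAD1, SMAD5 and SMAD9, and both sets enter the nucleus with SMAD4. TGF-beta is secreted in a latent form held in the matrix by LTBP proteins and fibrillins, while follistatins bind activins and noggin binds BMPs. In ovarian cancer cells the pathway is known both for growth arrest and for a shift towards a mesenchymal state.

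KLF5 itself was measured at 4371, 4425 and 4494 normalized counts in the sh-NC libraries and at 1745, 1440 and 1436 in the sh-KLF5 libraries. A normalized count is the read number of a gene after division by the library's own scaling factor. KLF5 fell to 34.8% of the control mean (log2 fold change -1.53, SE 0.12, adjusted p = 2.47e-07), and the groups did not overlap, as the labels say. Depth was close between groups, at 15852319 to 17543896 reads for sh-NC and 16009859 to 16871350 for sh-KLF5, and a count of 0 allows up to 3 reads, or 2.79 to 3.18 normalized counts, for counting error alone. Of the 7 epithelial and ovarian carcinoma markers, all had a row and none was higher. The adjusted p threshold was passed as lower by 4 of them (KRT7, KRT8, KRT18 and MUC1), beside 6.85% of all genes. Summed, the 7 markers reached 54310 to 66330 normalized counts in sh-NC libraries against 28580 to 39060 after silencing. Of 6 fibroblast markers, 3 (DCN, COL1A2 and PDGFRA) were called lower, beside 3.37% of all genes. LUM and COL1A1 did not pass, and PDGFRB had too few reads to be tested. The 6 summed to 656 to 1047 normalized counts in sh-NC against 261 to 593 after silencing. The leukocyte markers with a row were PTPRC, with 0 or 1 read in every library, and CD14, which made up nearly all of a summed level of 149 to 222 normalized counts in sh-NC against 191 to 379 after silencing (CD14 log2 fold change 0.66, adjusted p = 0.0725). The 3 endothelial markers summed to 66.1 to 87.0 normalized counts in sh-NC against 34.1 to 73.7 after silencing, mostly PECAM1 (-0.61, adjusted p = 0.172), while CDH5 had at most 3 reads. The part of these shifts in the results on the pathway was not tested, and in such bulk libraries fewer cells of a type and less RNA per cell cannot be told apart.

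Silencing of KLF5 came with changes in both directions among the pathway genes. Calls required an adjusted p under 0.05 (limma, Benjamini-Hochberg over all 15803 genes tested) together with a log2 fold change beyond 1 or -1. Higher in sh-KLF5 were 3 of the 47 tested genes (INHBA, LTBP2 and FST), against 1.9% of all genes called higher. Lower were 7 (INHBE, GDF15, FBN1, FBN2, FSTL3, NOG and ID4), against 3.37% of all genes called lower. In both directions this was 10 of 47 genes, or 21.3%, beside 5.28% of all genes tested. Without the fold threshold, 10 genes were higher (6.04% of all genes) and 9 lower (6.85% of all genes), together 40.4% of the 47 beside 12.9%. Groups that did not overlap were found for 24 genes, 51.1% of the 47 beside 31.3% of all genes. Of these, 13 were higher (15.4% of all genes) and 11 lower (15.9% of all genes). The median log2 fold change was 0.13 over the 47 genes and -0.0023 over all genes, and the median of its absolute value was 0.32 and 0.22. These shares describe the genes as listed, a list chosen with earlier results of these data known, and no set test was made.

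**Figure D1:**
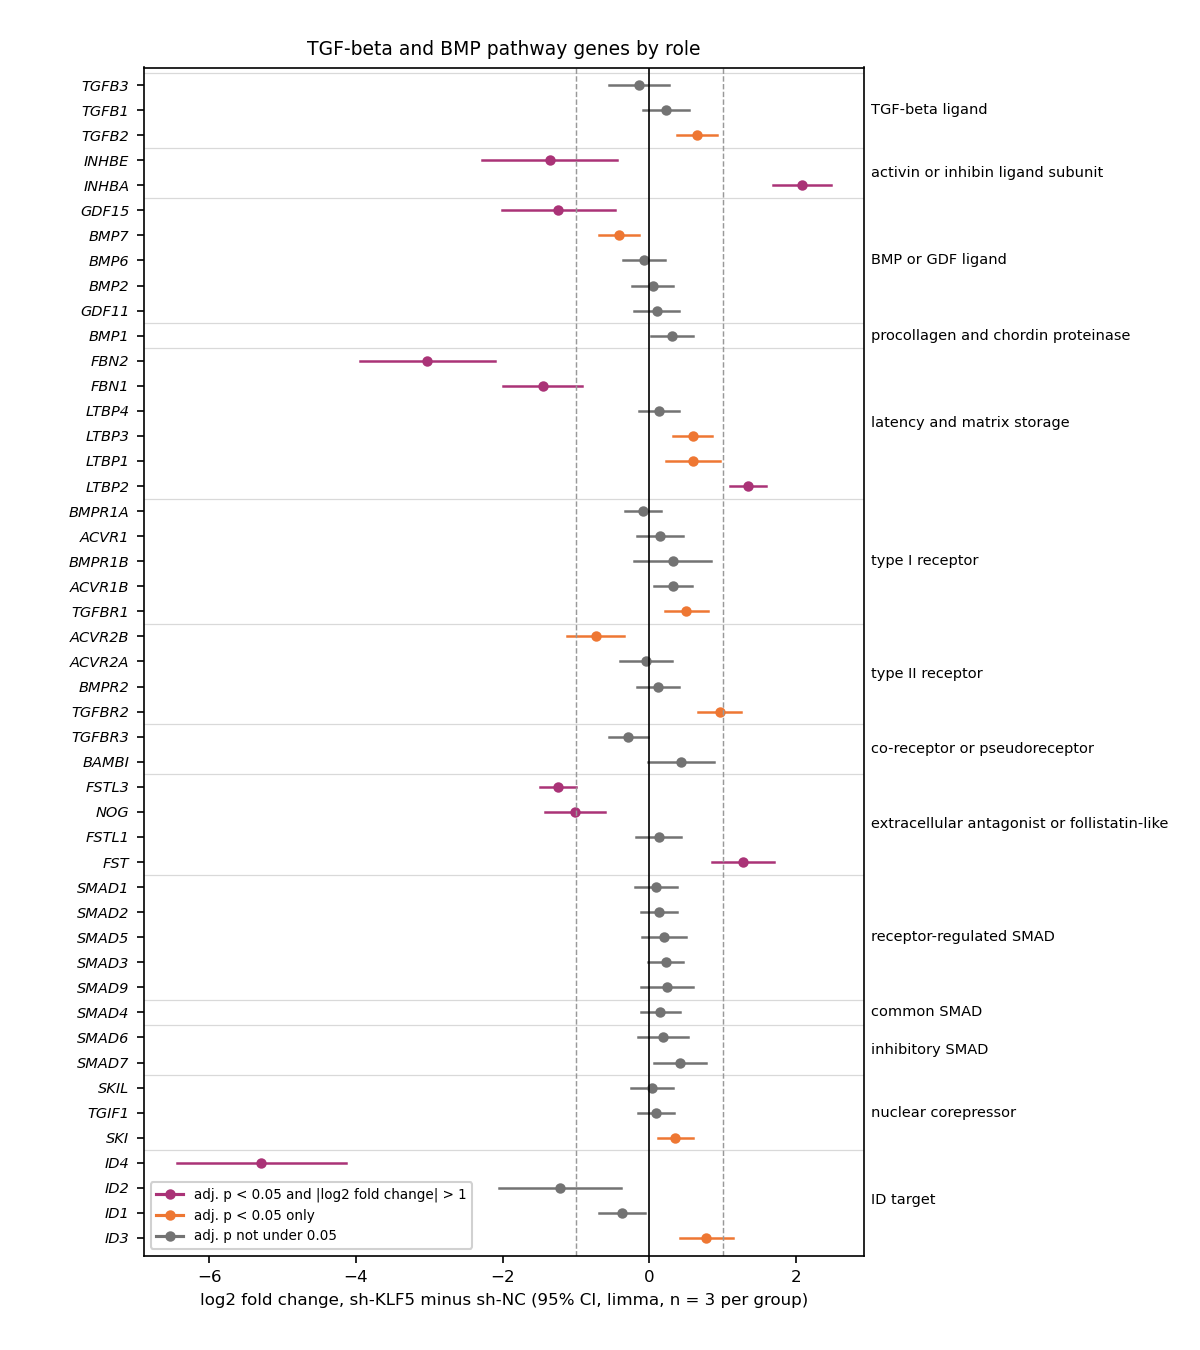
Log2 fold change of the 47 tested pathway genes (horizontal axis, sh-KLF5 minus sh-NC, point with 95% confidence interval from limma, 3 libraries per group), ordered by role. Genes past both thresholds are purple, those past the adjusted p threshold alone orange and the others grey, with dashed lines at 1 and -1, and INHBA at 2.08 is the highest point while the SMADs lie between 0.09 and 0.41.

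Among the TGF-beta ligands, TGFB2 rose and the other two did not pass the test. TGFB2, on chromosome 1 of GRCh38 (218346235 to 218444619, plus strand), was at 1670, 1419 and 1383 normalized counts in sh-NC and at 2541, 1982 and 2509 in sh-KLF5. The groups did not overlap, and the mean rose 1.57-fold, from 1491 ± 157 to 2344 ± 314 (SD, n = 3), with a log2 fold change of 0.65 (SE 0.13, adjusted p = 0.00246). TGFB1 stood highest of the ligands per kilobase of exon, at 765 normalized counts per kilobase in sh-NC and 897 in sh-KLF5. Its libraries overlapped, with 2232, 2241 and 2959 normalized counts in sh-NC and 2329, 3215 and 3173 in sh-KLF5, and its log2 fold change was 0.23 (95% interval -0.08 to 0.54, adjusted p = 0.356). Without sh-KLF5 replicate 1 the TGFB1 value became 0.38 with an adjusted p of 0.0235. TGFB3 had 88.7 to 123 normalized counts in all libraries and a log2 fold change of -0.14 (95% interval -0.55 to 0.26). Exons of TGFB1 share 6.6% of their length with the antisense gene HNRNPUL1, and TGFB2 shares 26.6% with the transcript TGFB2-OT1 on its own strand, so part of the reads could belong to either.

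On the activin arm, the ligand and 1 of its binding proteins rose while the other binding protein fell. INHBA, the beta A subunit of activin A, rose 4.3-fold. FST, follistatin, which binds and neutralizes activins, rose 2.45-fold, whereas FSTL3, a second secreted activin and myostatin binder, fell 2.37-fold. The 250 bases before the start of these genes are shown because they are the members with the clearest shift on this arm, and KLF factors are known to bind CACCC and GC-rich boxes. The sequences are from RefSeq on GRCh38.p14, in transcript direction, with each CACCC or GGGCGG on either strand in capitals. INHBA is at chr7:41703091-41703340 (minus), FST at chr5:53480379-53480628 (plus) and FSTL3 at chr19:676142-676391 (plus).
INHBA: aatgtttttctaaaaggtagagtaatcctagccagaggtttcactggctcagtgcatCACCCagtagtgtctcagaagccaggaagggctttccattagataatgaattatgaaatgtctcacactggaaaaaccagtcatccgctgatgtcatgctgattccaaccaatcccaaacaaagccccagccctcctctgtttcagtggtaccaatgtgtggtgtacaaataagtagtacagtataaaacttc
FST: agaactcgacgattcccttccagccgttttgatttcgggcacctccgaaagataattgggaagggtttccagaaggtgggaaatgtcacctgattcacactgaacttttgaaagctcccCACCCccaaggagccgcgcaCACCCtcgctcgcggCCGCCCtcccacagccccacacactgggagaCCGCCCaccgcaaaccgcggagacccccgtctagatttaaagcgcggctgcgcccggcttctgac
FSTL3: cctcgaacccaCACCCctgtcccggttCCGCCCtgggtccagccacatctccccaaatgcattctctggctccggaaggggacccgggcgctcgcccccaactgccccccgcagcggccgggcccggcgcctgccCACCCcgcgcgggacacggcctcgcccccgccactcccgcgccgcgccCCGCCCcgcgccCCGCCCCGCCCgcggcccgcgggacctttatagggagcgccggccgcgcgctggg
The INHBA window holds 1 CACCC and 0 GGGCGG, that of FST holds 2 of each, and that of FSTL3 holds 2 CACCC and 4 GGGCGG. Where RefSeq lists several starts for a gene, the first listed was used, and which start SKOV3 cells use was not measured.

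INHBA (chromosome 7, 41667168 to 41705834, minus strand) was at 60.5, 70.0 and 57.3 normalized counts in sh-NC and at 274, 229 and 305 in sh-KLF5. Every sh-KLF5 library lay above every sh-NC library. The means were 62.6 ± 6.58 and 269 ± 38.1 (SD, n = 3), a log2 fold change of 2.08 (SE 0.19, adjusted p = 1.2e-06). FST (chromosome 5, 53480409 to 53487134, plus strand) had 71.7, 61.1 and 67.9 normalized counts in sh-NC and 192, 159 and 141 in sh-KLF5. Its groups were apart as well, with a log2 fold change of 1.27 (SE 0.20, adjusted p = 0.000308). FSTL3 (chromosome 19, 676365 to 683399, plus strand) fell from 4529, 4267 and 5140 to 1950, 1844 and 2092 normalized counts. The highest sh-KLF5 library was thus below the lowest sh-NC library, and the log2 fold change was -1.24 (SE 0.12, adjusted p = 1.99e-06).

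Per kilobase of exon, FSTL3 stayed far above FST in either group, at 1515 against 22.5 in sh-NC and 640 against 55.3 in sh-KLF5. Summed per kilobase, these 2 genes went from 1537 ± 147 to 695 ± 37.7, and the share of FST in that sum from 1.47% to 7.98%. INHBA per kilobase went from 7.54 to 32.4. None of the 3 genes shares exonic bases with another annotated gene.

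The other activin subunits had few reads. INHBE, the beta E subunit, had 14.9, 21.7 and 25.5 normalized counts in sh-NC and 6.12, 7.76 and 8.02 in sh-KLF5. It was called lower at 2.83-fold (log2 fold change -1.36, SE 0.43, adjusted p = 0.0484), with no overlap between groups. Leaving out any 1 library ended that call (adjusted p 0.0652 to 0.184), as did DESeq2 (0.0586). It was also lost with scaling by library size only (0.0509), no filter on low counts (0.0522) and a pseudocount of 0.1 (0.0613). INHBB, the beta B subunit, was not tested and totalled 17 reads over the sh-NC group and 4 over the sh-KLF5 group, a ratio of 4.22 with a counting interval of 1.38 to 17.2.

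**Figure D2:**
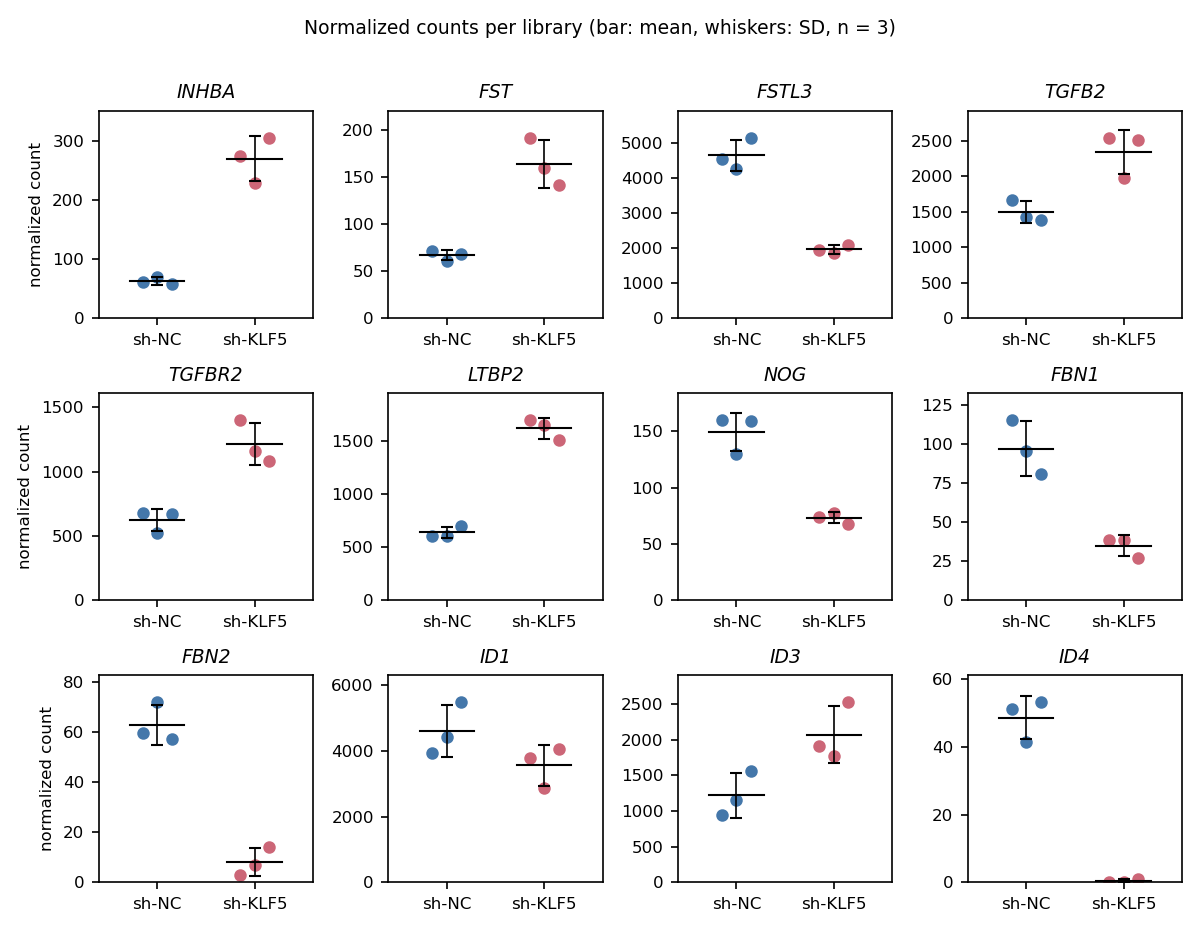
Normalized counts (vertical axis, from 0) of 12 pathway genes in each library, sh-NC in blue and sh-KLF5 in red, with a bar for the mean and whiskers for the SD (n = 3). The points of the groups overlap for ID1 and are apart for the other 11 genes, beside 31.3% of all genes tested. The 12 genes were picked for display and do not stand for the 47 tested, of which 51.1% were apart. ID4 is at 41.4 to 53.1 in sh-NC and at 0 to 1 in sh-KLF5.

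Of the 5 BMP and GDF ligands tested, BMP7 and GDF15 were lower at the adjusted p threshold, beside 6.85% of all genes. The others did not pass. BMP7, a ligand of kidney and bone development, had 592, 555 and 634 normalized counts in sh-NC and 441, 409 and 489 in sh-KLF5. The groups did not overlap, and BMP7 fell to 75.2% of the control mean (log2 fold change -0.41, SE 0.13, adjusted p = 0.0436), without passing the fold threshold. GDF15, a stress-induced distant relative of the family, had 46.6, 31.5 and 31.8 normalized counts in sh-NC and 21.4, 14.6 and 10.03 in sh-KLF5, again with no overlap. It was 2.39-fold lower (log2 fold change -1.24, SE 0.37, adjusted p = 0.034). Both results depended on single libraries. The BMP7 adjusted p was 0.0999 to 0.158 without sh-NC 1, sh-NC 2, sh-NC 3 or sh-KLF5 2, and 0.0675 with no filter on low counts, and that of GDF15 was 0.0789 to 0.179 without any 1 library other than sh-KLF5 1.

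BMP6 was the highest of these ligands per kilobase, at 292 in sh-NC and 275 in sh-KLF5. Its libraries overlapped, at 943, 719 and 773 normalized counts in sh-NC and 799, 670 and 828 in sh-KLF5 (log2 fold change -0.08, adjusted p = 0.755). BMP2 had means of 383 ± 4.24 and 396 ± 33.4 normalized counts (log2 fold change 0.04, 95% interval -0.23 to 0.32). GDF11 had a log2 fold change of 0.10 (95% interval -0.21 to 0.41).

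BMP1, a metalloproteinase that cuts procollagens and chordin and is no ligand despite its name, had 1077, 963 and 1004 normalized counts in sh-NC and 1029, 1487 and 1283 in sh-KLF5. The lowest sh-KLF5 library lay within the sh-NC range, and the log2 fold change of 0.31 did not pass (adjusted p = 0.163). Without sh-KLF5 replicate 1 it was 0.45, with an adjusted p of 0.00379.

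Among the BMP antagonists, NOG fell. Noggin, its product, binds BMPs outside the cell and blocks their receptor contacts. NOG (chromosome 17, 56593699 to 56595590, plus strand) was at 160, 130 and 159 normalized counts in sh-NC and at 74.4, 77.6 and 68.2 in sh-KLF5. The groups were apart, with a 2.04-fold fall (log2 fold change -1.01, SE 0.19, adjusted p = 0.0017). This value sits at the fold threshold: it was -0.96 without sh-NC 1, -0.97 without sh-NC 3, -0.96 without sh-KLF5 3 and -0.98 with a pseudocount of 5, each with an adjusted p still under 0.05. GREM1, the BMP antagonist gremlin, had at most 2 reads in any library. CHRDL1, chordin-like 1, totalled 13 reads over the sh-NC group and 1 over the sh-KLF5 group, a ratio of 12.9 with a counting interval of 1.94 to 548, and was not tested. FSTL1, a secreted glycoprotein that resembles follistatin, had 5221, 4383 and 4401 normalized counts in sh-NC and 5782, 3924 and 5736 in sh-KLF5, with a log2 fold change of 0.12 (adjusted p = 0.644).

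The LTBP and fibrillin genes split by family. All 4 LTBP genes had positive log2 fold changes, and 3 of them passed the adjusted p threshold, beside 6.04% of all genes as higher. LTBP2, a microfibril protein that, unlike its relatives, does not bind latent TGF-beta, had 607, 608 and 705 normalized counts in sh-NC and 1701, 1659 and 1512 in sh-KLF5. These groups lay far apart, and LTBP2 (chromosome 14, 74498170 to 74612378, minus strand) rose 2.54-fold, with a log2 fold change of 1.34 (SE 0.12, adjusted p = 1.01e-06). LTBP3, which binds latent TGF-beta, had 822, 827 and 957 normalized counts in sh-NC and 1287, 1468 and 1167 in sh-KLF5. It rose without overlap by a log2 fold change of 0.59 (SE 0.12, adjusted p = 0.00415). LTBP1, which anchors the latent complex to the matrix, had 146, 215 and 187 normalized counts in sh-NC and 294, 293 and 235 in sh-KLF5. It rose by 0.59 as well (SE 0.17, adjusted p = 0.0348), but missed the adjusted p threshold without sh-NC 1, sh-NC 3 or sh-KLF5 2 (adjusted p 0.0917 to 0.198). LTBP4 was at 1158, 1192 and 1238 normalized counts in sh-NC and at 1252, 1557 and 1149 in sh-KLF5, which overlap (log2 fold change 0.13, adjusted p = 0.564).

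Summed per kilobase, the LTBP genes went from 327 ± 19.9 to 506 ± 51.9. Within that sum LTBP2, which does not bind latent TGF-beta, went from 70.4 to 179. LTBP4 had the largest share in sh-NC, 45.1%, and 32.1% in sh-KLF5, while LTBP2 went from 21.5% to 35.5%. The fibrillins, the microfibril backbone to which LTBPs attach, went the other way. FBN1 (chromosome 15, 48408306 to 48645849, minus strand) had 116, 95.6 and 80.6 normalized counts in sh-NC and 38.7, 38.8 and 27.1 in sh-KLF5. The groups did not overlap, and FBN1 fell 2.79-fold (log2 fold change -1.46, SE 0.25, adjusted p = 0.00083).

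FBN2 (chromosome 5, 128257909 to 128659185, minus strand) fell further, its reads numbering 64, 73 and 54 for sh-NC and 3, 7 and 14 for sh-KLF5. On the normalized scale the means were 62.9 ± 7.87 and 7.96 ± 5.58 (SD, n = 3), 7.91-fold lower, with a log2 fold change of -3.03 (SE 0.43, adjusted p = 0.000152). That size depends on the pseudocount, from -3.22 to -2.47, since sh-KLF5 1 is at the limit of 3 reads. Of the matrix genes among the fibroblast markers, COL1A2 (log2 fold change -3.58) and DCN (-1.82) fell in the same libraries, whereas LUM (-0.45, adjusted p = 0.361) and COL1A1 (0.30, adjusted p = 0.539) did not pass and their groups overlapped. The part of these markers in the fibrillin values was not tested.

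Among the receptors, the pair that binds TGF-beta ligands rose. TGFBR2, the type II receptor that captures TGF-beta (chromosome 3, 30606502 to 30694142, plus strand), had 679, 526 and 670 normalized counts in sh-NC and 1400, 1158 and 1082 in sh-KLF5. The groups were far apart, and the level rose 1.94-fold (log2 fold change 0.96, SE 0.14, adjusted p = 0.000156), just under the fold threshold. Without sh-NC 1, sh-NC 3 or sh-KLF5 3 it passed that threshold, at 1.02, 1.01 and 1.04. TGFBR1, its type I partner kinase, had 1030, 966 and 890 normalized counts in sh-NC and 1703, 1176 and 1255 in sh-KLF5. No library overlapped, and TGFBR1 rose by a log2 fold change of 0.50 (SE 0.14, adjusted p = 0.0254). TGFBR1 missed the adjusted p threshold without sh-NC 2 (adjusted p = 0.0962) or sh-NC 3 (adjusted p = 0.127).

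ACVR2B, an activin type II receptor, fell, with 190, 169 and 171 normalized counts in sh-NC and 92.8, 101 and 126 in sh-KLF5. These groups did not overlap, and the level was 60.5% of the control mean (log2 fold change -0.73, SE 0.18, adjusted p = 0.0133), although without sh-NC 1 the adjusted p was 0.0759. Its paralog ACVR2A had a log2 fold change of -0.05 (95% interval -0.41 to 0.31). The type II receptor with the highest level per kilobase in sh-NC, BMPR2, which pairs with BMP type I receptors, had 2665, 2893 and 2635 normalized counts in sh-NC and 3660, 2564 and 2746 in sh-KLF5, with overlap (log2 fold change 0.11, adjusted p = 0.637). Per kilobase, TGFBR2 made up 32.9% of the type II receptors in sh-NC and 47.5% in sh-KLF5, and BMPR2 went from 57% to 46%.

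BMPR1A, the BMP type I receptor with the highest level per kilobase of the type I receptors in sh-NC, had 1914, 2095 and 2037 normalized counts in sh-NC and 2031, 1690 and 2004 in sh-KLF5. The libraries overlapped (log2 fold change -0.08, adjusted p = 0.702). The activin type I receptor ACVR1B had no overlap between groups, at 564 to 645 and 703 to 805 normalized counts, and a log2 fold change of 0.32 that did not pass (adjusted p = 0.101, and 0.0192 without sh-KLF5 1). ACVR1 (0.14) and BMPR1B (0.32) did not pass either. TGFBR3, betaglycan, a co-receptor that presents TGF-beta and inhibin, was at 671, 658 and 622 normalized counts in sh-NC and at 584, 538 and 476 in sh-KLF5. Its groups did not overlap, but its log2 fold change of -0.29 had an adjusted p of 0.147, and 0.0294 without sh-KLF5 1. BAMBI, a pseudoreceptor without a kinase domain, had a log2 fold change of 0.43 (95% interval -0.03 to 0.88).

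The SMADs, the signal carriers inside the cell, showed no change past the threshold. All 8 had log2 fold changes above 0, from 0.09 (SMAD1) to 0.41 (SMAD7), with adjusted p from 0.12 to 0.729, although SMAD6 turned to -0.0049 without sh-NC 1. Their 95% intervals ran from -0.20 at the lowest to 0.77 at the highest. SMAD1, SMAD2, SMAD4 and SMAD5 were each highest in sh-KLF5 1. With 1 library left out, their lowest log2 fold changes were 0.025, 0.031, 0.014 and 0.026. SMAD3, the TGF-beta and activin effector and the highest receptor-regulated SMAD per kilobase (236 in sh-NC and 276 in sh-KLF5), had 2184, 2118 and 2140 normalized counts in sh-NC and 2246, 2683 and 2604 in sh-KLF5. The groups did not overlap, with a log2 fold change of 0.22 (adjusted p = 0.233, and 0.0244 without sh-KLF5 1). SMAD4, the common partner, had 1154, 1175 and 1150 normalized counts in sh-NC and 1543, 1185 and 1157 in sh-KLF5. Only sh-KLF5 1 stood well above the rest there, and the log2 fold change was 0.15 (adjusted p = 0.509). SMAD6, an inhibitor of BMP receptor signals and the higher of the inhibitory pair per kilobase, had 482, 689 and 740 normalized counts in sh-NC and 620, 699 and 831 in sh-KLF5. Those libraries overlapped. SMAD7, which inhibits TGF-beta receptors and is itself induced by TGF-beta, had 156 to 209 normalized counts in sh-NC and 215 to 264 in sh-KLF5, without overlap (adjusted p = 0.12).

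Of the 3 nuclear corepressors that restrain SMAD-driven transcription, SKI passed the adjusted p threshold of 0.05 as higher, beside 6.04% of all genes. SKI, the highest of them per kilobase, had 2042, 1928 and 1930 normalized counts in sh-NC and 2330, 2691 and 2525 in sh-KLF5. The groups did not overlap, and SKI rose 1.28-fold (log2 fold change 0.35, SE 0.11, adjusted p = 0.0462). SKI missed the adjusted p threshold without any 1 library other than sh-KLF5 1 (adjusted p 0.0855 to 0.196). It also missed it with no filter on low counts (0.0601) and with 10 reads asked of every library (0.0503). SKIL and TGIF1 had log2 fold changes of 0.03 and 0.09.

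The ID genes, which are induced by BMP through SMAD1 and SMAD5 and whose products lack a DNA-binding region and sequester basic helix-loop-helix factors, did not move together. ID3 rose, ID4 fell to the limit of detection, and ID1 and ID2 did not pass the adjusted p threshold. The 250 bases before the ID3 and ID4 starts are shown, as these are the family members that passed, again from RefSeq on GRCh38.p14 with each CACCC or GGGCGG on either strand in capitals. ID3 is at chr1:23559502-23559751 (minus) and ID4 at chr6:19837120-19837369 (plus).
ID3: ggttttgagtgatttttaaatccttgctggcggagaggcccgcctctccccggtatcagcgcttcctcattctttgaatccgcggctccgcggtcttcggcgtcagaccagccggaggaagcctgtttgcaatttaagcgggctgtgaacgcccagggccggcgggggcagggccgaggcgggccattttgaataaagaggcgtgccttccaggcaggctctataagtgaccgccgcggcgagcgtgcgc
ID4: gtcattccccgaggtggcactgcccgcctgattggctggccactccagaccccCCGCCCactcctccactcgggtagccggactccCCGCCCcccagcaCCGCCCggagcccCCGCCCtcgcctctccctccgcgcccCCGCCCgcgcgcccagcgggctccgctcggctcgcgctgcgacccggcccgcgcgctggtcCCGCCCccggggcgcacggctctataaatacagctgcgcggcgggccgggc
The ID3 window holds 0 of either motif, and that of ID4 holds 0 CACCC and 6 GGGCGG.

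ID4 (chromosome 6, 19837386 to 19840684, plus strand) was counted 55, 42 and 50 times in sh-NC and 0, 0 and 1 times in sh-KLF5. The sum of 147 reads against 1 gives a depth-scaled ratio of 146, with a counting interval of 25.8 to 5800. The gene was called lower by limma (adjusted p = 5.64e-06), but the fitted size is set by the pseudocount, from -7.76 to -3.33. ID3 (chromosome 1, 23557918 to 23559794, minus strand) had 943, 1155 and 1563 normalized counts in sh-NC and 1911, 1775 and 2523 in sh-KLF5. Those groups did not overlap. ID3 rose 1.7-fold (log2 fold change 0.78, SE 0.17, adjusted p = 0.00533), with an adjusted p of 0.115 without sh-KLF5 1.

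ID1, the highest of the family per kilobase, was at 3950, 4416 and 5485 normalized counts in sh-NC and at 3788, 2872 and 4059 in sh-KLF5. The libraries overlapped, with a log2 fold change of -0.37 (95% interval -0.69 to -0.06, adjusted p = 0.118). ID2 had 43.8, 44.3 and 74.3 normalized counts in sh-NC and 34.7, 10.7 and 28.1 in sh-KLF5. It passed the fold threshold without the p threshold, at a log2 fold change of -1.22 (SE 0.39, adjusted p = 0.0515), with no overlap. It passed both in 5 of the 9 alternatives that kept all libraries (adjusted p 0.00534 to 0.0488), DESeq2 among them (0.0364), and without sh-KLF5 1 (0.00762) or sh-KLF5 3 (0.0421). Summed per kilobase, the family reached 4469 ± 822 in sh-NC against 4061 ± 698 in sh-KLF5, a difference within the spread of the libraries. Within that sum ID1 went from 83.9% to 71.3% and ID3 from 15.1% to 28.4%, with every sh-KLF5 library (25.6% to 29.8%) above every sh-NC library (13.9% to 16.2%).

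**Figure D3:**
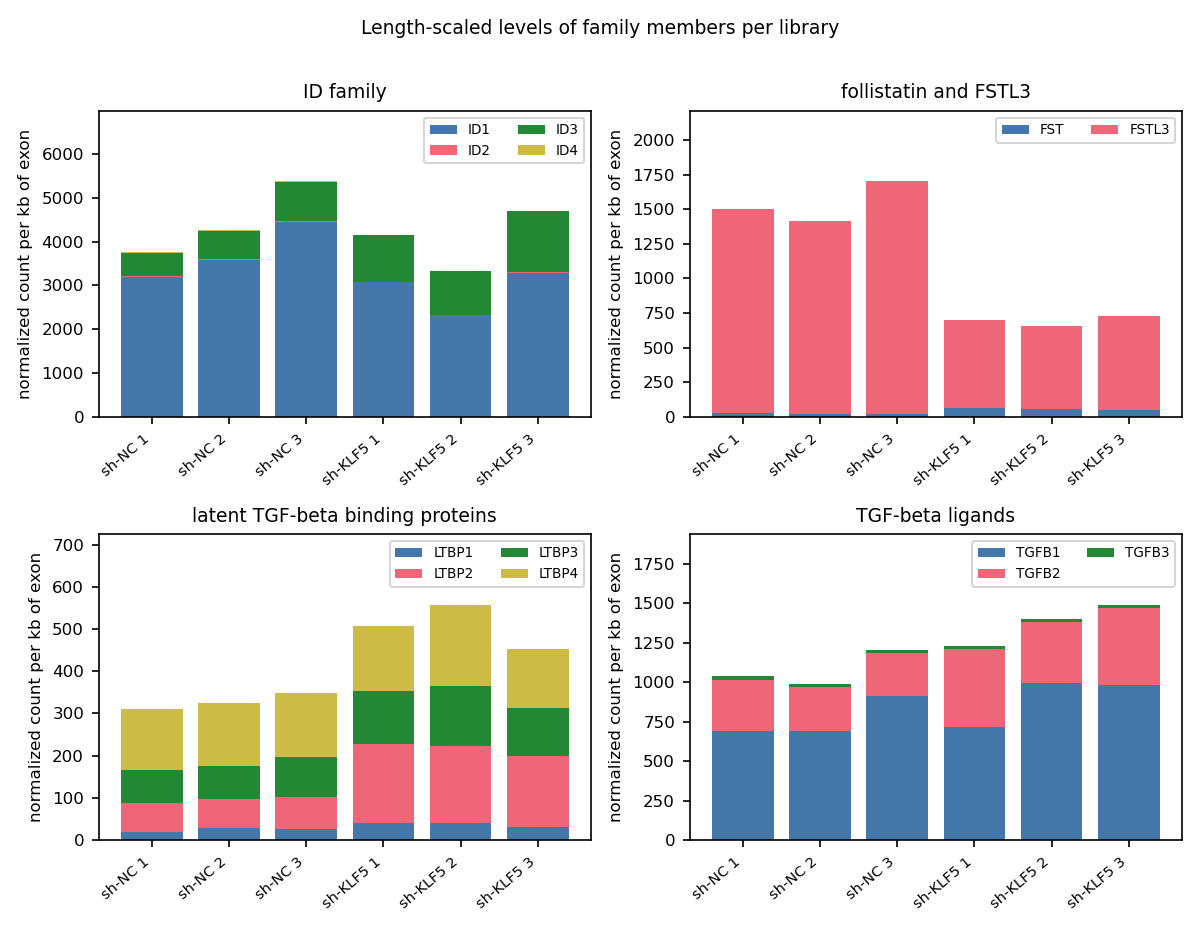
Stacked bars of the normalized count per kilobase of exon (vertical axes, from 0) in each of the 6 libraries for the ID family, follistatin with FSTL3, the latent TGF-beta binding proteins and the TGF-beta ligands, coloured by gene. The FSTL3 bars fall from a mean of 1515 to 640, the LTBP2 segment widens, and the ID3 segment takes 28.4% of the ID sum in sh-KLF5 against 15.1% in sh-NC.

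The motifs were also counted in the windows of all pathway genes. RefSeq gave a 250-base window for 44 of the 50 genes with a row, and BMP4 was not looked up. CACCC, on either strand, was in 54.5% of them and in 53.7% of the 27305 promoters of the genome. GGGCGG was in 70.5% and 42.3%. CAGAC, the core of the SMAD-binding element, was in 34.1% and 37.8%, and GGCGCC, a GC-rich SMAD site, in 29.5% and 16.1%. The promoters of the genome were not matched to the pathway genes for GC content or expression, and the cause of any difference was not tested. A match is a description of letters, and binding of KLF5 or a SMAD was not measured.

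A further list of 73 symbols covers other ligands, receptors, modulators and targets of the pathway, with 2 genes entered under an old and a new symbol. Of these, 55 had a row and 38 were tested. Called higher was 1 (CDKN1A) and called lower was 1 (DCN), 5.26% of the 38 beside 5.28% of all genes. At the adjusted p threshold alone 8 were higher and 2 lower, 26.3% of the 38 beside 12.9% of all genes. Among 10 tested targets of TGF-beta and SMAD3, 4 passed as higher (6.04% of all genes) and 0 as lower (6.85% of all genes). The other 6 overlapped between groups, with log2 fold changes from -0.43 (TAGLN) to 0.30 (COL1A1). Several of these targets also answer to other signals, and no set test was made.

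CDKN1A, the cell cycle inhibitor p21, had 1759, 1321 and 1532 normalized counts in sh-NC and 6529, 5829 and 4022 in sh-KLF5. It rose 3.55-fold, without overlap (log2 fold change 1.81, SE 0.16, adjusted p = 1.2e-06). DCN, decorin, a matrix proteoglycan that binds TGF-beta and is also one of the fibroblast markers above, had 398, 234 and 241 normalized counts in sh-NC and 113, 75.7 and 58.2 in sh-KLF5. Its groups were apart, with a log2 fold change of -1.82 (SE 0.25, adjusted p = 9.69e-05).

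The other genes of the list past the adjusted p threshold were named after their values were seen. Among the targets they were TGFBI, a matrix protein induced by TGF-beta (log2 fold change 0.90, adjusted p = 0.00014), CDKN2B, the cell cycle inhibitor p15 (0.75, 0.00546), and the matricellular gene CTGF (0.64, 0.0312). CTGF missed that threshold when any 1 of the sh-NC libraries or sh-KLF5 1 was left out. Among the 13 tested intracellular regulators, 2 passed the adjusted p threshold, 15.4% beside 12.9% of all genes, which is near that background. These were NEDD4L, a ubiquitin ligase acting on activated SMAD2 and SMAD3 (0.63, adjusted p = 0.00219), and PMEPA1, a TGF-beta-induced feedback inhibitor (0.68, adjusted p = 0.00564). ENG, the co-receptor endoglin, went from 1640 ± 135 to 2604 ± 195 normalized counts (0.67, adjusted p = 0.00083). BMPER, a secreted BMP-binding modulator, was higher (0.89, adjusted p = 0.0168), but missed the adjusted p threshold without sh-NC 3 (0.0875) or sh-KLF5 3 (0.0753). BMP8B, a BMP ligand, was lower without overlap, at 157 to 213 normalized counts in sh-NC and 105 to 125 in sh-KLF5 (-0.64, adjusted p = 0.0298). BMP8B missed the adjusted p threshold without sh-NC 1, sh-NC 2, sh-NC 3 or sh-KLF5 3 (adjusted p 0.0559 to 0.19).

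**Figure D4:**
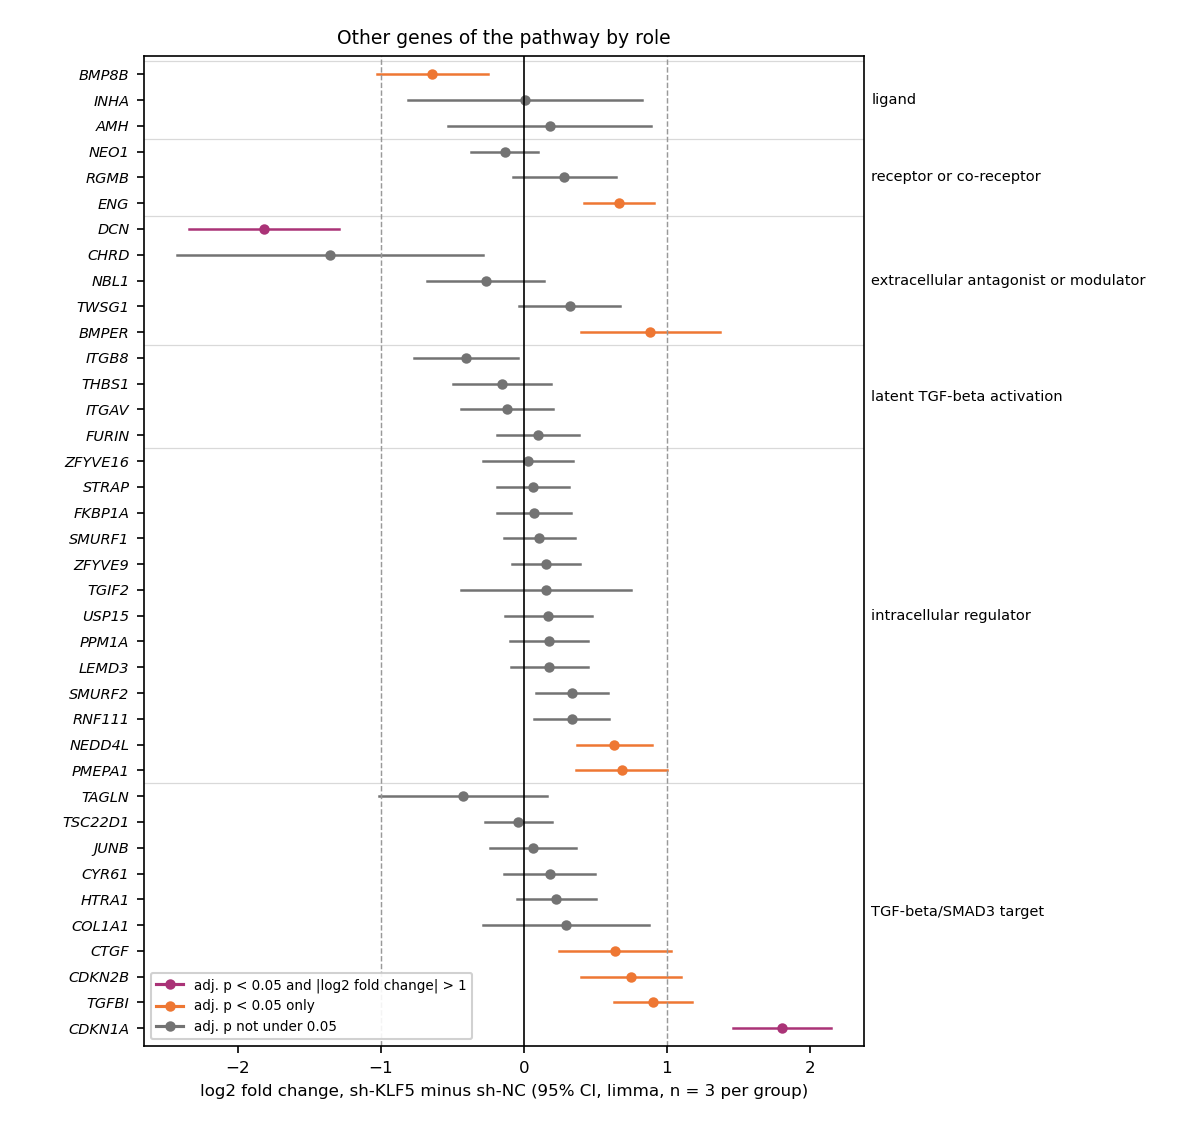
Log2 fold change of the 38 tested genes of the further pathway list (horizontal axis, sh-KLF5 minus sh-NC, point with 95% confidence interval from limma, 3 libraries per group), ordered by role and coloured as called, past the adjusted p threshold alone, or neither. CDKN1A at 1.81 lies beyond the dashed line at 1, and DCN at -1.82 beyond the line at -1.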

How the data were processed

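RNA-seq libraries of SKOV3 cells (3 sh-NC, 3 sh-KLF5) were analysed, with groups and replicate numbers from the sample labels. The submitters' processing notes name HISAT2 2.0.5, featureCounts 1.5.0-p3, DESeq2 1.20.0 and hg38. Whether counting used strand is not given in the sources used here, so antisense overlaps cannot be told apart. The authors deposited 1 table with a normalized signal per gene and library, the reads divided by 1 factor per library, and with the authors' own group means, fold changes and p-values, which were not used.

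In each library the smallest positive value was taken as 1 read, which gave whole reads for 100% of the values (tolerance 0.001). Coordinates of all rows matched GENCODE release 29. Groups were compared with limma 3.58.1 (trend, robust; R 4.3.3) on log2(normalized count + 1), which understates changes of low genes, over the 15803 genes kept by filterByExpr of edgeR (minimum count 10), with Benjamini-Hochberg adjustment. On the recovered reads edgeR 4.0.16 called 312 genes higher and 528 lower. An exact permutation test of 3 against 3 libraries cannot go below p = 0.1. Pairs of libraries of a group differed by more than sampling noise (chi-square per degree of freedom 4.33 to 30.4). The largest values were those of sh-KLF5 1 against sh-KLF5 2 (23.5) and sh-KLF5 3 (30.4). Between sh-KLF5 2 and sh-KLF5 3 it was 10.4, and within sh-NC at most 8.41. Levels per kilobase used the table's exon lengths. Intervals of read ratios are exact and cover counting error only.

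The members and lists were chosen with earlier results of these data known. Values per library are given for genes with an adjusted p under 0.05, genes past the fold threshold alone, and the highest gene per kilobase of each role. Of the further list, called genes were named by rule and the others past the adjusted p threshold after their values were seen. 1 further gene was taken off that list and is not reported here. Scripts were tested on simulated data. Alternatives were edgeR, DESeq2 1.42.0, other scalings, filters and pseudocounts, the replicate block, and leaving out each library. Figures were drawn with matplotlib 3.10.9.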

Additional observations from a re-analysis of the deposited data

How the results depend on the processing

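Across the 9 alternatives that kept all libraries, 3 pathway genes were called higher in each, and 5 to 8 were called lower against 7 in the reported fit. The 5 came from asking for 10 reads in every library, which removed FBN2, ID4 and INHBE from the test while ID2 became called. Leaving out 1 library at a time gave 3 to 4 called higher and 4 to 7 called lower (4 without sh-NC 1 and without sh-NC 3). At the adjusted p threshold alone it gave 7 to 13 higher (13 without sh-KLF5 1) and 5 to 10 lower (5 without sh-NC 1). In these fits INHBE, GDF15, BMP7, LTBP1, TGFBR1, ACVR2B, SKI, ID3 and the fold of NOG fell out of their threshold at least once. KLF5 stayed between -1.62 and -1.48 on the log2 scale. The further list gave 1 to 2 called higher (2 without sh-KLF5 2, where BMPER passed as well) and 1 lower. INHBA, LTBP2, FST, FBN1 and FSTL3 were called in every alternative, and FBN2 and ID4 in every one that tested them.

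Of the 47 tested pathway genes, those whose sign turned had an adjusted p far above 0.05 throughout. BMP6 ranged from -0.16 to 0.032 over the left-out libraries (0.013 without sh-KLF5 2), BMPR1A from -0.13 to 0.0027 (without sh-KLF5 2), BMPR2 from -0.040 (without sh-KLF5 1) to 0.22, and SMAD6 from -0.0049 (without sh-NC 1) to 0.30. BMP2 ranged from -0.011 (without sh-KLF5 3) to 0.11, GDF11 from -0.015 (without sh-KLF5 2) to 0.22, TGIF1 from -0.0024 (without sh-KLF5 1) to 0.16, and SKIL from -0.12 (without sh-KLF5 1; -0.018 without sh-NC 3) to 0.15. ACVR2A ranged from -0.18 to 0.026 (without sh-KLF5 3), with 0.020 without sh-NC 3 and 0.0092 without sh-KLF5 2. The cause was not tested.

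Samples with the same replicate number correlated at 0.06, 0.03 and 0.05 after removal of the group means, under the 0.1 set for pairing. Even so, 6 of 6 libraries correlated best with their own number, and unlike numbers correlated at -0.057 to -0.0011. Removal of the means of 3 libraries ties these correlations to each other, so the 6 matches are not separate observations. Whether libraries of the same number are paired cannot be told from these values, and the reported fit left the number out. With the replicate block, 3 pathway genes were called higher and 8 lower (10 and 11 at the adjusted p threshold alone), KLF5 stood at -1.53, and ID2 (adjusted p = 0.00856) and ID1 (adjusted p = 0.0279) passed the adjusted p threshold. At these depths, the fitted sizes of genes with few reads, such as INHBE, FBN2 and ID4, depend on counting error and the pseudocount. INHBB, CHRDL1 and GREM1 were not tested and have no fitted size, only read numbers with a wide counting error.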
